A study of Homo sapiens with 3 samples.

Results

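EP300 peaks assigned to 10 genes of fibroblast growth factor (FGF) signalling are described here: the ligand family genes FGF2, FGF4, FGF8, FGF13, FGF17 and FGF19, and the receptor genes FGFR1, FGFR2, FGFR3 and FGFR4. The genes were taken by name, and their peaks are the rows of both deposited EP300 tables whose assigned gene is one of the 10. EP300 is a histone acetyltransferase and coactivator found at active promoters and enhancers, and it was mapped by chromatin immunoprecipitation and sequencing (ChIP-seq) in H9, a widely used line of human embryonic stem cells. All samples were labelled as wild type, and the cells were kept in the naive state in N2B27 medium with PD0325901, XAV939, Go 6983 and LIF at 10 ng/mL (together PXGL) on a layer of mouse embryonic fibroblasts. The series has 2 samples with an EP300 antibody and 1 input sample without antibody, for which no table was analysed here. Whether both EP300 samples were grown as separate cultures is not stated, and differences between them can be of technical origin. With 1 condition there is no contrast to test, and every value is a description of these 2 peak lists.

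FGF ligands are secreted proteins that bind receptor tyrosine kinases on the cell surface, with heparan sulfate or a Klotho protein as a coreceptor. The receptors signal through adaptors, RAS and RAF to the kinases MEK and ERK, and ERK activity raises the transcription of feedback genes such as those of the Sprouty and DUSP families. PD0325901, present in this medium, is an inhibitor of MEK, so FGF receptors can be present while the pathway is blocked below them. FGF2 is used to maintain primed human pluripotent cells, and FGF4 is the ligand of the early mouse embryo that drives primitive endoderm formation.

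The 10 genes had 36 of 65276 peaks in replicate 1 and 39 of 64896 peaks in replicate 2, after rows of the same interval were joined. These peaks carried 57 and 68 summits, the points of highest signal that the authors' caller reported. Merging peaks that overlapped between the lists by at least 1 bp gave 29 regions present in both replicates, of 46263 regions in all. Of the 10 genes, 9 had at least 1 such region, against 70.4% of protein-coding genes. The same 9 had a region that the authors annotated as promoter, within 3 kb of a start site, against 66.9% of protein-coding genes. The exception was FGF17. Most protein-coding genes thus carried EP300 at a promoter in these lists, and nothing particular to the 10 genes is read from their count.

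The promoter sequences of the 5 genes matched in the RefSeq promoter table are shown, since EP300 peaks covered their start sites and their GC box content differed. Each line gives the bases directly upstream of the outermost start, taken from RefSeq of GRCh38.p14 or from the authors' rows. For FGFR4 that start is the authors' one, which lies further out than the RefSeq start. The bases run 5′ to 3′ on the strand of the gene, with GC boxes (GGGCGG or its reverse complement) in capitals. The intervals are chr4:122826581-122826681 on the plus strand for FGF2, chrX:139205024-139205273 on the minus strand for FGF13, chr10:121598459-121598694 on the minus strand for FGFR2, chr4:1793043-1793292 on the plus strand for FGFR3 and chr5:177086665-177086904 on the plus strand for FGFR4. FGF4, FGF8, FGF17, FGF19 and FGFR1 are named only.
FGF2: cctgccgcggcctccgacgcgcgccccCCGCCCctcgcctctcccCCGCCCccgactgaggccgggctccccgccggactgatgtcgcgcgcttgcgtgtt
FGF13: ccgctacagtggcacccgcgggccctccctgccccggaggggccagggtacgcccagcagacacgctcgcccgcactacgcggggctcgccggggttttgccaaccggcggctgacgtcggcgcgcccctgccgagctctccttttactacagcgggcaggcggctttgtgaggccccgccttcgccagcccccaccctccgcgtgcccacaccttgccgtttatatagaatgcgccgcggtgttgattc
FGFR2: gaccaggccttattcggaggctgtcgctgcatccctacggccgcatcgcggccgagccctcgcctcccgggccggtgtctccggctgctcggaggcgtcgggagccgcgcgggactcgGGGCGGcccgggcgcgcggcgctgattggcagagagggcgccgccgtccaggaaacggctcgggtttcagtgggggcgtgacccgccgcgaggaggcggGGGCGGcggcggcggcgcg
FGFR3: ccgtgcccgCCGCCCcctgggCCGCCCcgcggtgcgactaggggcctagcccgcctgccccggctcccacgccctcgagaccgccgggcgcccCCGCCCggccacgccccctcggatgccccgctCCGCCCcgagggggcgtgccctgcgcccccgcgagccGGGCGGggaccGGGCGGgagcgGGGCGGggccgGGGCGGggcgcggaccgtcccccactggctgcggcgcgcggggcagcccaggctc
FGFR4: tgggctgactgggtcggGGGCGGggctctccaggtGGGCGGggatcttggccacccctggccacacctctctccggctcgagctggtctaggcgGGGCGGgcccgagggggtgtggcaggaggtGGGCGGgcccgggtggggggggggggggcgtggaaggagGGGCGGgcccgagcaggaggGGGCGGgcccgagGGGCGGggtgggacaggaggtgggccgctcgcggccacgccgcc

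The capitals show 8 GC boxes upstream of FGFR3, 7 upstream of FGFR4, 2 each upstream of FGF2 and FGFR2, and 0 upstream of FGF13. The printed stretches differ in length, from 101 bases for FGF2 to 250 for FGF13 and FGFR3, so these counts are not directly comparable. GC boxes were also searched on either strand over the full 300 bases of the outermost RefSeq promoter entry of each gene. Those bases run from 250 before the start to 50 after it. A GC box was found in 4 of the 5 genes and in 45.0% of 35116 promoters, which include inner entries of genes. A count as high as the 8 of FGFR3 was found in 0.812% of promoters, and one as high as the 7 of FGFR4 in 1.50%. Over the same 300 bases FGFR2 held 5 and FGF2 held 3, counts that 5.14% and 15.8% of promoters reach. FGFR3 was also the most GC-rich, at 86.3% against a median of 58.7% over all promoters. FGF13, the gene without a GC box, held the only TATA box letters (TATAAA), which 11.5% of promoters hold. FGFR4 held GGAATG, the core of TEAD factor sites, which 14.0% of promoters hold. None of the 5 outermost entries held the AP-1 letters TGANTCA (7.71% of promoters), the ETS letters CCGGAAG (10.3%) or the TFAP2 letters GCCNNNGGC (23.2%). They also lacked the E-box CACGTG (7.26%), the octamer ATGCAAAT (1.77%) and the SOX letters CATTGT (10.8%), searched on both strands. Inner entries of these genes were left out of the member counts, and some held such letters. An inner FGF13 entry held TGANTCA, an inner FGFR4 entry held GCCNNNGGC and CACGTG, and inner FGFR2 entries held GGAATG. A match is a description of letters in this window, not a binding site.

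The peaks lay over these windows to different degrees. All 300 bases of the FGF2, FGF13 and FGFR3 windows were inside a peak in both replicates. For FGFR2 the peaks covered 261 bases in replicate 1 and 173 in replicate 2, and for FGFR4 they covered 235 and 93. The strongest summit lay downstream of the start that defines the RefSeq promoter entry in 4 of the 5 genes, by 719 and 739 bp in FGF2, 1034 and 971 bp in FGFR2, 1372 and 1591 bp in FGFR3, and 313 and 369 bp in FGFR4, in replicates 1 and 2. FGF13 differed from these: the summit over its printed promoter lay 95 bp upstream in replicate 1 and 115 bp upstream in replicate 2.

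**Figure D1:**
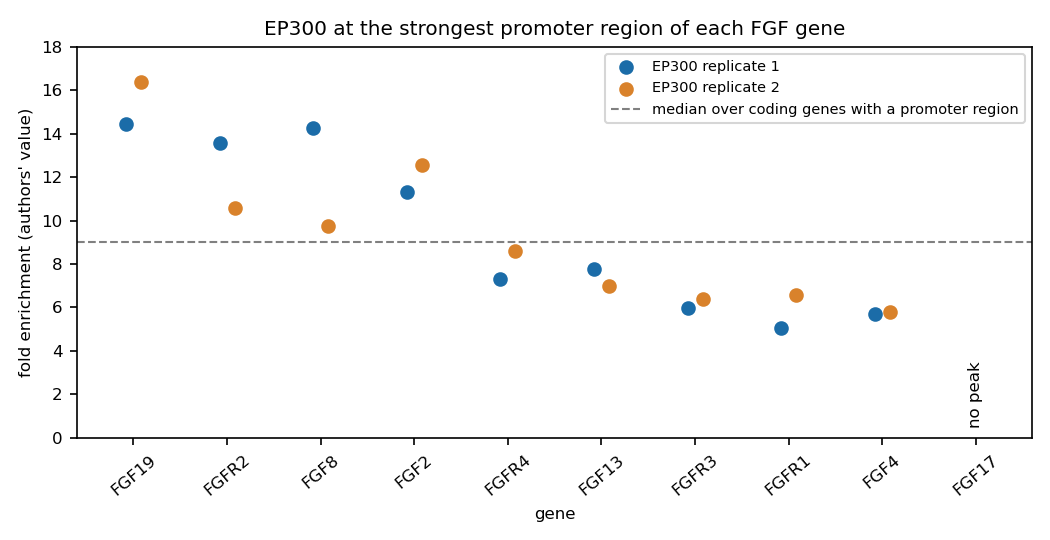
Fold enrichment of EP300 over background (vertical axis, the authors' value at the highest summit) at the strongest promoter region of each gene (horizontal axis), with 1 point per replicate; the dashed line is the median over protein-coding genes with a promoter region, 9.001. FGF19, FGFR2, FGF8 and FGF2 lie above the line in both replicates, and the other 5 genes with a region lie below it. FGF17 has no assigned peak.

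Fold enrichment is the authors' own value for each peak, and here it ranks peaks within 1 list. As the plot of promoter fold enrichment shows, the 9 genes fell into a higher and a lower set, with a median of 7.95 against 9.001 over all protein-coding genes with a promoter region. FGF19, FGFR2, FGF8 and FGF2 had means of the 2 replicates above that median. FGFR4, FGF13, FGFR3, FGFR1 and FGF4 had means below it, with FGF4 lowest at 5.75 and FGF19 highest at 15.4. FGF19 was the highest in both lists, and FGFR2, FGF8 and FGF2 were above the lower 5 genes in both. Within these sets the order changed between replicates: FGF8 was above FGFR2 and FGF2 in replicate 1 and below both in replicate 2, FGF13 was above FGFR4 in replicate 1 and below it in replicate 2, and FGFR1 was below FGF4 and FGFR3 in replicate 1 and above both in replicate 2.

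Among the ligands, FGF19 had the strongest promoter. FGF19 is the human endocrine FGF that signals through FGFR4 with beta-Klotho and lowers bile acid synthesis in liver. Its promoter region, chr11:69700831-69705503, was 4.67 kb long and reached 14.5-fold in replicate 1 and 16.4-fold in replicate 2, percentiles 95.3 and 96.8 of all peaks. Each replicate had 3 summits there, and they paired between the lists at 23, 25 and 131 bp. The middle summit was the highest in both lists, 286 and 311 bp downstream of the RefSeq 5′ end. The flanking summits reached 11.4 and 13.3 on the gene side and 9.58 and 11.6 on the upstream side, so all 3 exceeded the coding-gene promoter median in both lists. Weaker FGF19 regions followed upstream, at chr11:69705805-69706682 with 4.60 and 4.15, and at chr11:69712374-69713169 with 5.34 and 3.49.

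FGF2, the ligand used to hold human embryonic stem cells in the primed state, had only 1 region, chr4:122825220-122828221 over its promoter and first exon. Its fold enrichment was 11.3 in replicate 1 and 12.6 in replicate 2, percentiles 90.0 and 92.0. FGF2 and FGF19 were the only members with an assigned region at percentile 90 or higher in both lists. A merged region upstream of FGFR3, described below, reached percentiles 92.6 and 93.7, but its strongest peak in replicate 1 was assigned to TACC3. In FGF2, the summits were close between replicates. The 2 leading summits of each list lay 10 and 20 bp apart between replicates. Replicate 2 had 2 further summits upstream at 3.64 and 2.81, which made its peak 3002 bp wide against 1790 bp in replicate 1. No further peak lay in the FGF2 gene, which runs on for 70225 bp past the peak in replicate 1 and 70015 bp in replicate 2, and its peaks covered 1.86% and 2.15% of the gene.

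FGF8 patterns the midbrain, limb and gastrula, and its gene neighbours OGA, which encodes the enzyme that removes O-linked N-acetylglucosamine from proteins. FGF8 had 4 regions, all within or downstream of its gene, and 7.81% of protein-coding genes had as many. The strongest, chr10:101774040-101777077, reached 14.3 in replicate 1 and 9.74 in replicate 2, percentiles 95.0 and 85.1. It has the authors' promoter annotation although its top summit lay 3.93 and 4.07 kb inside the gene from the RefSeq 5′ end, because it sits at an inner start site, 328 and 185 bp upstream of it. At the outer start, chr10:101778279-101780409 reached less, 5.62 and 7.08. The difference between the start sites was therefore large in replicate 1 and smaller in replicate 2, with the inner one higher in both. A peak annotated as 3′ UTR, chr10:101770172-101771591, had 3.97 and 4.41, and an intergenic region 15.6 kb past the assigned start, chr10:101759250-101760291, had 4.16 and 4.52. RefSeq places the non-coding genes LOC105378457 and LOC105378458 over these last regions.

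The OGA promoter reached 11.2 and 14.0, and the nearest FGF8 region lay 37.0 kb from it. In replicate 2 OGA was above every FGF8 region, while in replicate 1 the inner FGF8 promoter was above OGA. Between them, NPM3, a gene of the nucleoplasmin family of histone chaperones, had a promoter region at 8.38 and 7.92 that lay 2.36 kb from the outer FGF8 promoter region. All 7 peaks within 50 kb of FGF8 in replicate 1, and all 7 in replicate 2, were shared with the other list.

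FGF4, a target of POU5F1 and SOX2 in pluripotent cells, had the lowest promoter value of the 9 genes by the mean and in replicate 2, with 5.69 and 5.81 at percentiles 65.2 and 66.0. Its promoter region, chr11:69773325-69776711, was wide at 3.39 kb, and the top summits of the replicates were 558 bp apart. The known FGF4 enhancer lies in the 3′ part of the gene. No peak lay in the last 2680 bp of the gene in replicate 1 or in the last 2303 bp in replicate 2, where the promoter peaks began. The position of the enhancer itself was not compared with the peaks. The other FGF4 regions were weak and intergenic, chr11:69764044-69765140 with 2.94 and 2.99 and chr11:69787179-69788392 with 2.92 and 3.72. FGF4 and FGF19 lie in 1 cluster with FGF3, and their promoter regions were 67.8 kb apart. The FGF3 promoter, 28.6 kb from the nearest FGF4 region, had 5.27 and 3.67. The gene on the other side of the cluster, LTO1, had a promoter region of 11.3 and 14.1 that lay 24.9 kb from FGF19. Within the cluster FGF19 was thus far above FGF4 and FGF3 in both lists.

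FGF13 belongs to the intracellular FGF homologues, which bind sodium channels and microtubules and are not secreted. Its gene spans 590.3 kb of chromosome X and had EP300 at 2 start sites, the outer one at its 5′ end and the inner one 494 kb downstream. The inner one, chrX:138710350-138712463, reached 7.77 and 6.99. The outer one, chrX:139203328-139205545, whose upstream sequence is printed with the others, reached 4.24 and 4.78. The inner start was higher in both lists, and FGF13-AS1, a non-coding RefSeq gene, overlaps that region. Apart from the promoters, FGF13 had 1 intronic peak, in replicate 1 only, at 4.09.

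FGF17, a ligand of the FGF8 subfamily, had no row in either list. In replicate 1 a weak peak assigned to the adjacent gene DMTN, with a fold enrichment of 2.24 at percentile 0.321, overlapped the last 51 bp of FGF17. Also in replicate 1, a peak assigned to NPM2, chr8:22036466-22036945, lay 2.73 kb from the other end of FGF17. It had 3.44 at percentile 23.9. Both peaks were absent from replicate 2. The nearest peak of replicate 2 lay 13.8 kb away at the promoter of NPM2, which reached 9.35 and 8.50. There were 6 regions within 50 kb of FGF17 and all 6 were assigned to other genes.

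The receptors had 16 regions over 4 genes, 7 promoter and 9 other, against 13 regions over 6 ligand genes, 8 promoter and 5 other. FGFR1, a receptor that binds FGF2 and FGF4, had modest values. Its start-site region, chr8:38465981-38469431, reached 5.19 and 5.95, with top summits 5 bp apart. A region about 3 kb further upstream, chr8:38471764-38472931, reached 5.07 and 6.57, and a distal one, chr8:38484486-38485279, 3.57 and 2.95. Within the FGFR1 gene, 26.3 to 29.2 kb from its 5′ end in replicate 1, the authors assigned 3 further shared regions to RPS20P22, a ribosomal protein pseudogene. Their values were 7.36 and 5.50, 8.85 and 5.71, and 3.36 and 3.42. In replicate 1 the first and the second of these were above every peak assigned to FGFR1, but in replicate 2 both were below the FGFR1 promoter. Pseudogenes and genes that are named only for such regions were chosen after their values were seen.

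FGFR2, a receptor whose epithelial and mesenchymal forms differ by splicing, had the strongest promoter of the receptors. The region chr10:121596908-121598655 reached 13.6 in replicate 1 and 10.6 in replicate 2, percentiles 94.1 and 87.5. FGFR2 had 5 regions in all, a number that 4.84% of protein-coding genes reach. A region in intron 2, chr10:121580676-121581409, reached 7.32 and 5.41. Past the 3′ end, chr10:121458445-121461322 reached 5.69 and 6.36 and chr10:121464316-121465002 had 3.11 and 2.86. A minor promoter region, chr10:121595578-121596684, had 3.20 and 2.88. The promoter was the highest of the 5 in both lists. About 10.5 kb upstream of the FGFR2 start, chr10:121607752-121610193 reached 9.13 and 11.5 and was assigned to an Ensembl gene without a symbol. In replicate 2 that upstream region was above the FGFR2 promoter, and in replicate 1 it was below.

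FGFR4, the liver and muscle receptor of FGF19, had 3 regions. Its promoter, chr5:177086730-177088018, reached 7.30 and 8.61 at percentiles 76.1 and 81.3, with summits 56 bp apart. A second region with promoter annotation, chr5:177098460-177099913, lies just past the end of the RefSeq gene and had 2.84 and 3.65, with summits 937 bp apart. An intergenic region, chr5:177105179-177106399, had 5.28 and 4.17. NSD1, the next gene, had 13.2 and 13.8 at its promoter, above all 3 FGFR4 regions.

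FGFR3, a receptor best known for limiting the growth of cartilage, had a promoter below the coding-gene median and a wide EP300 block upstream. By the mean of both lists, 75.5% of protein-coding genes with a promoter region were at least as high as FGFR3. Its promoter region, chr4:1792166-1795343, reached 5.97 and 6.41 with 3 summits in each list. This start site has the 8 GC boxes printed with its sequence. The block lay upstream, in intergenic sequence between FGFR3 and TACC3. In replicate 1 it consisted of a peak of 10913 bp with 10 summits, assigned to FGFR3, and a peak of 4871 bp, assigned to TACC3. Only 4 peaks of that list, this one included, were at least as wide. In replicate 2 the same stretch was split into 4 peaks: one of 829 bp at its far end, assigned to TACC3, and 3 of 6665, 2005 and 5809 bp, assigned to FGFR3.

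Counted over both assigned genes, the FGFR3 block held 15 summits over 16.0 kb in replicate 1 and 15 summits over 16.5 kb in replicate 2. Peaks covered 15.8 and 15.3 kb of it. Fold enrichment of the summits ran from 2.92 to 12.6 in replicate 1 and from 3.04 to 13.6 in replicate 2, with medians of 7.34 and 7.73. In each list 6 summits lay within 100 bp of a summit in the other. High points were found in both lists at the same places. About 26.2 kb upstream the values were 12.6, the highest of replicate 1, and 12.5, with summits 76 bp apart. About 25.5 kb upstream they were 11.8 and 13.4, with summits 15 bp apart, and 13.5 kb upstream they were 10.7 and 13.6, with summits 14 bp apart. Between the latter places the summits fell to 2.92 in replicate 1 and 3.47 in replicate 2, near 22.7 kb upstream. Summits of 10 or more numbered 4 in replicate 1 and 5 in replicate 2, all above the FGFR3 promoter of the same list. A RefSeq non-coding gene, LOC124900648, at chr4:1772283-1776934, lies inside it.

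**Figure D2:**
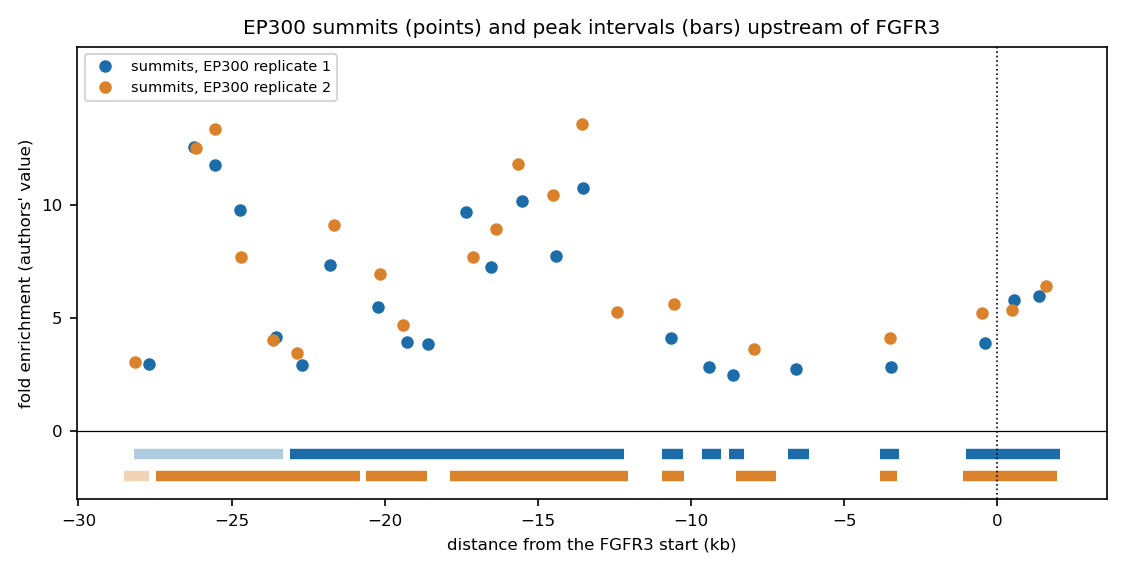
Distance from the RefSeq start of FGFR3 in kb (horizontal axis, upstream negative) against fold enrichment (vertical axis, the authors' value) for each summit, coloured by replicate; bars under the zero line are peak intervals, and pale bars are peaks assigned to TACC3. Both replicates have high summits near 13.5, 25.5 and 26.2 kb upstream, up to 13.6, and lower ones over the promoter, up to 6.41.

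Between the block and the promoter, FGFR3 had 3 more shared regions. Their values were 4.12 and 5.63 at 10.7 kb, 2.47 and 3.65 at 8.63 kb, and 2.84 and 4.13 at 3.48 kb upstream, by the summit of replicate 1. All 3 were higher in replicate 2. FGFR3 also had 2 peaks in replicate 1 only, with 2.86 and 2.77. The TACC3 promoter, 43.1 kb from the nearest block peak assigned to FGFR3, reached 15.3 and 15.7. Which of FGFR3 and TACC3 the block belongs to was not tested.

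Regions around these genes were also counted whichever gene the authors assigned them to. Within 50 kb of the 10 genes there were 74 pairs of gene and region, of which 29 were regions assigned to that gene, and 3 regions between FGF4 and FGF19 count for both. FGF2 and FGFR1 each had 7 regions within 50 kb that were assigned to another gene. FGFR1 had 3 of its own beside them, and FGF2 had only its promoter. Of the 7 around FGF2, 6 lay 25.3 to 43.8 kb upstream of it in replicate 1. The strongest of the 6 by mean were chr4:122795231-122796727 with 7.65 and 8.05 and chr4:122796912-122798497 with 7.91 and 7.37. They were assigned to an Ensembl gene without a symbol. Inside FGF13, an intronic region assigned to the pseudogene TPM2P1 had 5.11 and 3.38. For FGF8, by contrast, 4 of 7 regions were its own.

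**Figure D3:**
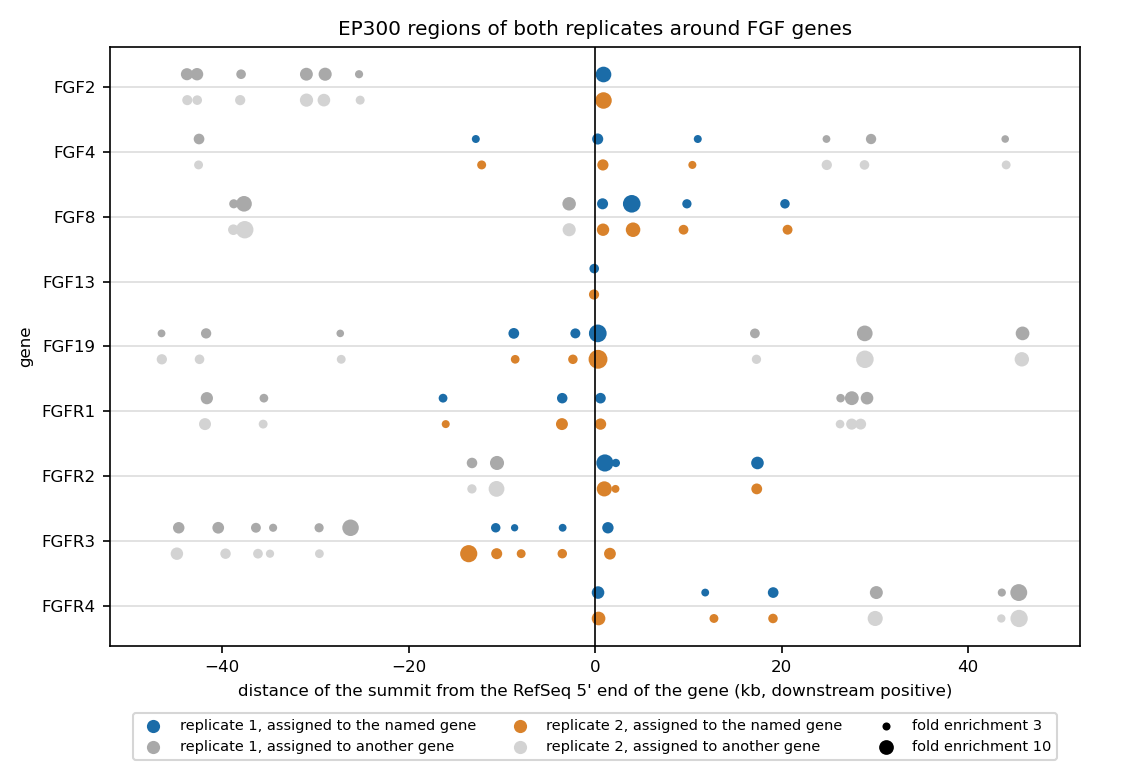
Distance of each region's top summit from the RefSeq 5′ end of the gene (horizontal axis, in kb, downstream positive) for the 9 genes with peaks (vertical axis), with replicate 1 above and replicate 2 below each line; colour marks regions assigned to the named gene, grey marks regions assigned to another, and point area is proportional to fold enrichment. Regions farther than 52 kb from the 5′ end are outside the axis, such as the inner start of FGF13 at 494 kb. FGF2 has 1 coloured point per replicate and 6 grey ones upstream, and the top summit of the FGFR3 block lies 26.2 kb upstream in replicate 1, grey because that peak was assigned to TACC3, and 13.6 kb upstream in replicate 2.

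The peaks assigned to the 10 genes differed from the whole lists in where they lay. Distal intergenic peaks made up 44.4% of them in replicate 1 and 48.7% in replicate 2, against 24.1% and 23.8% of all peaks. FGFR3 weighed on this share: it had 7 peaks in each list, all distal intergenic except its promoter peak. Its upstream block counted as 1 peak in replicate 1 and as 3 in replicate 2. Intronic peaks made up 5.56% and 7.69%, or 2 and 3 peaks, against 22.3% in each whole list. Intronic regions inside FGFR1 and FGF13 that were assigned to pseudogenes are not among them. Promoter peaks made up 47.2% and 41.0%, against 47.9% and 48.0%. Their distal intergenic peaks were not strong, with median fold enrichments of 3.42 and 3.65 against 4.09 and 4.13 over all such peaks. Of the 10 genes, 7 had a shared region outside promoters, which 20.4% of protein-coding genes had. FGF2, FGF13 and FGF17 were those without one. With peaks of fold enrichment of at least 5, only 2 of the genes, FGFR2 and FGFR3, had such a region, against 9.92% of protein-coding genes. The genes had 2.9 regions each on average, against 1.36 over protein-coding genes, and gene length and the distance to neighbouring genes were not matched in this comparison.

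Wide peaks were found at several of these genes. Peaks of 3 kb or more numbered 3 of 36 in replicate 1, or 8.33%, and 8 of 39 in replicate 2, or 20.5%, against 1.76% and 2.00% of all peaks. In replicate 1 they belonged to FGF19 and FGFR3. In replicate 2 they were at FGF2, FGF4, FGF8, FGF19, FGFR1 and FGFR3. Those at FGFR3 included parts of the upstream block, 6665 and 5809 bp wide, that count separately. The FGF2 and FGF8 peaks, 3002 and 3038 bp in replicate 2, were just over the limit, and in replicate 1 they were 1790 and 2792 bp.

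The replicates shared most of these peaks. Of the replicate 1 peaks 83.3% overlapped a peak of replicate 2, and of the replicate 2 peaks 79.5% overlapped one of replicate 1, against 74.5% and 73.9% over all peaks. The peaks found in 1 list only, 6 and 8, were weak, with fold enrichments of 2.55 to 4.09 and 2.78 to 4.16. Of the 8 in replicate 2, 4 were at FGFR2. Of the 29 shared regions, 19 were higher in replicate 2, among them all 5 of FGFR3, and 10 were higher in replicate 1. The same count over all regions was not made. The ratio of replicate 2 to replicate 1 ran from 0.654 to 1.48, with a median of 1.11 against 1.02 over all regions. Read depth is unknown, so its part in this spread was not tested. Of the summits, 26 of 57 and 30 of 68 lay within 100 bp of a summit in the other list, counting also those of peaks found in 1 list only. The share over all summits was not computed. The 100 bp limit also differs from the 1 bp overlap of peaks, so summits and peaks are not compared.

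The rest of the pathway was read from a list of 69 genes in 5 classes. A promoter region in both replicates was found for 57 of the 69, or 82.6%, against 66.9% of protein-coding genes. The class of transcription factors and feedback genes, which respond to ERK, had one in 13 of 13. Its median promoter value was 8.85, against 9.001 over all protein-coding genes with a promoter region, and its lowest gene had a mean of 5.15. DUSP6, the phosphatase that inactivates ERK, led the class with 16.5 and 22.9, above the FGF19 promoter in both lists. IL17RD (Sef), an inhibitor of FGF signalling, had 13.0 and 14.4, and SPRED1, an inhibitor of RAS to RAF signalling, had 12.9 and 14.5. These promoters thus carried EP300 in a medium that holds a MEK inhibitor; expression was not measured in these tables.

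Of the RAS to ERK cascade, 9 of 12 genes had a promoter region, among them RASA1, a RAS GTPase activator, with 14.7 and 17.1, and the kinase gene BRAF with 14.1 and 14.8. ARAF, HRAS and MAP2K1 lacked one. Of the adaptors, 10 of 11 had one. The highest were GRB2, which links receptors to SOS, with 13.0 and 13.7, PLCG1, a phospholipase that binds the activated receptor, with 13.4 and 11.7, and CRKL with 12.3 and 12.5. PTPN11, which encodes the phosphatase SHP2, had no assigned peak in either list. Median promoter values were 10.8 for the cascade and 9.56 for the adaptors, against 7.95 for the 9 ligand and receptor genes.

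The other FGF genes had a promoter region in 12 of 16, with a median of 6.66. FGF9 was highest with 14.6 and 18.4, followed by FGF12, an intracellular homologue like FGF13, with 13.9 and 17.2, and FGF11, of the same intracellular group, with 12.5 and 10.4. FGF5 and FGF7 had no assigned peak in either list. Of the coreceptors and binding proteins, 13 of 17 had one, with a median of 7.11. The heparan sulfate proteoglycan genes SDC2, with 15.2 and 17.4, and SDC1, with 15.1 and 12.8, were the highest, with the heparan sulfate enzyme gene HS2ST1 at 12.0 and 15.0. KLB, the coreceptor through which FGF19 acts on FGFR4, had no assigned peak in either list, although FGF19 and FGFR4 both had promoter regions. FGFBP3 had none either.

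**Figure D4:**
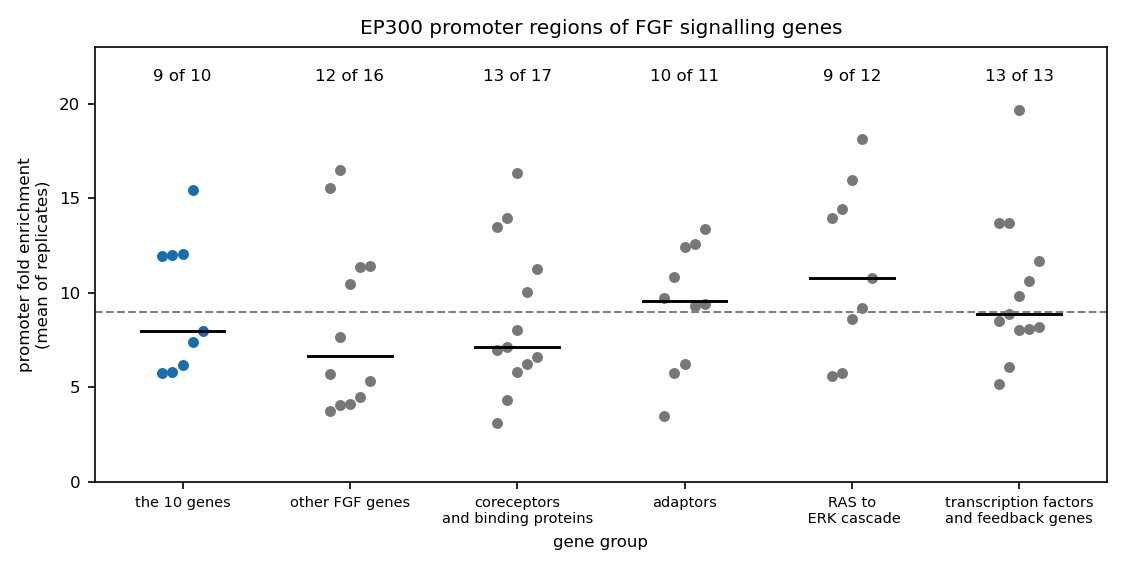
Fold enrichment at the strongest promoter region (vertical axis, mean of 2 replicates of the authors' value) for each gene with such a region, by gene group (horizontal axis); short lines are group medians, the dashed line is the protein-coding median of 9.001, and the counts at the top are genes with a promoter region of genes in the group. The 10 ligand and receptor genes have a median of 7.95 and the RAS to ERK cascade 10.8.

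The labelled cell type was checked on promoter regions. All 6 pluripotency genes examined had one, from SOX2 with 3.69 and 3.63 and the naive marker KLF17 with 2.90 and 6.88 to LIN28A with 21.0 and 23.9 and TFAP2C with 22.4 and 27.1. So did all 4 fibroblast genes, from COL1A1 with 4.60 and 6.80 to COL1A2 with 18.2 and 20.1. Presence of a promoter region does not separate these lists, and the part of other cells in the signal was not tested.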

How the data were processed

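EP300 ChIP-seq peak tables of 2 samples were used, as deposited by the authors, called per sample. The submitters' processing notes name GRCh38 and fastp 0.19.11. No aligner, peak caller or calling threshold is given in the sources used here. Per the file headers, each row is 1 summit with a signal value, taken as the fold enrichment ratio, with −log10 p-value and −log10 q-value columns. The deposited q-values reached 0.0497 in replicate 1 and 0.0498 in replicate 2. The tables hold no read counts, so depth is unknown.

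Rows of equal interval were joined, keeping the highest fold enrichment. Peaks on chromosomes 1 to 22 and X that overlapped between replicates by at least 1 bp were merged into regions. The gene and promoter annotation, within 3 kb of a start, is the authors'. Backgrounds are 19970 protein-coding RefSeq genes. Promoter sequences came from RefSeq (GRCh38.p14), and 5 of 10 genes matched. The overlap step was checked on simulated intervals. Python 3.11.15, pandas 2.3.3, numpy 2.4.6 and matplotlib 3.10.9 were used. No test was run.

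The genes and lists were chosen with earlier results of these data known. Named genes are all 10 members and neighbours with a promoter within 50 kb of a member region. Of each pathway class, they are the 3 highest promoters, genes without an assigned peak, and those lacking a promoter region where 3 or fewer do. One gene that this rule takes is not reported here. Alternatives changed the overlap, fold, q and promoter limits, the gene assignment, the summit kept and the replicates used.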

Additional observations from a re-analysis of the deposited data

How the results depend on the processing

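The 9 genes with a region and the 9 with a promoter region were 9 under each alternative run, except that a region of any gene within 50 kb was found for 10. The pathway count of 57 ranged from 49 to 60. The 2.9 regions per gene became 1.4 with fold enrichment of at least 5, 1.9 with −log10 q of at least 5, and 7.4 when any region within 50 kb counted; single replicates gave 3.6 and 3.9 peaks. Of the 7 genes with a region outside promoters, 6 had one with the 50% overlap, 4 with −log10 q of at least 5 and 2 with fold enrichment of at least 5, against 20.4% of protein-coding genes at first and 18.8%, 14.1% and 9.92% then; these were added after seeing the data. The shared share of 81.4%, the mean of both lists, became 65.4% when the overlap had to be 50% of both peaks and 90.8% with fold enrichment of at least 5. The median of the strongest fold enrichment per gene, 11.9, was 5.86 with the lowest summit of each peak and 9.74 to 10.7 from single replicates. Without FGFR3, a choice made after seeing the data, there were 2.67 regions per gene and 80.6% were shared. No paired analysis was possible because only the EP300 group has tables. Depth is unknown, so a missing peak, as at FGF17, does not show that EP300 is absent.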
